A study of Mus musculus with 2 samples.

Results

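Polycomb repressive complexes are chromatin regulators that keep developmental genes silent. The 10 subunit genes described here are Ezh1, Ezh2, Eed, Suz12, Rbbp4, Rbbp7, Jarid2, Ring1, Rnf2 and Bmi1. They were taken by symbol from the gene table of both libraries, and all 10 were found among 33456 genes. Mouse yolk sac of the B6 strain was profiled by droplet-based 5′ end single-cell RNA sequencing, with 1 library from Baf155 CKO embryos and 1 from wild-type (WT) embryos. Baf155, encoded by Smarcc1, is a core subunit of the BAF chromatin remodelling complex, and the study concerns its role in blood formation from erythromyeloid progenitors. In both libraries yolk sacs of E9.5 and E10.5 embryos, in equal numbers, were pooled, dissociated with collagenase, frozen, and sorted for live cells without Ter119, a red cell surface antigen. The material is labelled as nuclei although the protocol handles live cells. The sources used here state neither the Cre driver nor the deleted exon nor how many embryos were pooled, and cells cannot be assigned to E9.5 or E10.5.

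Polycomb repressive complex 2 (PRC2) methylates lysine 27 of histone H3. Its catalytic subunit is Ezh2 or Ezh1, which works with the core subunits Eed and Suz12 and with the histone-binding proteins Rbbp4 or Rbbp7, and Jarid2 is an accessory subunit that binds nucleosomes. Polycomb repressive complex 1 (PRC1) ubiquitylates histone H2A through Ring1 or Rnf2 (Ring1b), and Bmi1 is one of the Pcgf partners of these enzymes. Ezh2 is known for high expression in dividing cells and Ezh1 for its presence in resting cells. In blood, PRC2 restrains differentiation programmes and Bmi1 maintains stem cells. BAF and Polycomb complexes are known to oppose each other on chromatin.

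On GRCm38 the PRC2 genes lie at chr11:101191115-101226463 (Ezh1, minus strand), chr6:47530139-47595341 (Ezh2, minus), chr7:89954654-89980983 (Eed, minus) and chr11:79993106-80034123 (Suz12, plus). Rbbp4 lies at chr4:129307100-129335370 on the minus strand, Rbbp7 at chrX:162760402-162779092 on the plus strand and Jarid2 at chr13:44729474-44921643 on the plus strand. The PRC1 genes lie at chr17:34020792-34024680 (Ring1, minus), chr1:151458004-151500955 (Rnf2, minus) and chr2:18677018-18686629 (Bmi1, plus). Their promoters are shown for 4 members, because Ezh2, Suz12 and Rbbp4 were the members with a match to the E2F motif, the site of the factors that drive S phase genes, and Ezh1 is the catalytic alternative to Ezh2 without one. Each window runs from 250 bases before to 20 bases after the RefSeq start on GRCm38.p6, 5′ to 3′ on the gene's strand, and capitals mark the E2F match. The windows are chr11:101226444-101226713 for Ezh1, chr6:47595011-47595280 for Ezh2, chr11:79992856-79993125 for Suz12 and chr4:129335351-129335620 for Rbbp4.
Ezh1: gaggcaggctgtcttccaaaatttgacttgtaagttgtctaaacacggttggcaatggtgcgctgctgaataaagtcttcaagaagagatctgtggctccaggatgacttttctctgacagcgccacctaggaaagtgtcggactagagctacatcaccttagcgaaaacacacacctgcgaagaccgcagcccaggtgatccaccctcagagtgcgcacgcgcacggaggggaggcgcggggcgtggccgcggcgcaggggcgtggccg
Ezh2: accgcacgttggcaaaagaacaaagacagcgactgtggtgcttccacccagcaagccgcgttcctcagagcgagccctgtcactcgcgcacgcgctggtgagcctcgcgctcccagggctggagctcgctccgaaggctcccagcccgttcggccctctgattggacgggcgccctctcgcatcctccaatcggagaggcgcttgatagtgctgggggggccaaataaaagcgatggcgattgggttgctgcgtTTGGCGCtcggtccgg
Suz12: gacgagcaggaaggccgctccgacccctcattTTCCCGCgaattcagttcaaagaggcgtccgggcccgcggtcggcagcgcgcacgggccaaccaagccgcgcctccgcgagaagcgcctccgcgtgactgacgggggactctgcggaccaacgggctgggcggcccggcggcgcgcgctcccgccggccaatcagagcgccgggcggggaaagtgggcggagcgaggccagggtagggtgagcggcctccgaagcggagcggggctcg
Rbbp4: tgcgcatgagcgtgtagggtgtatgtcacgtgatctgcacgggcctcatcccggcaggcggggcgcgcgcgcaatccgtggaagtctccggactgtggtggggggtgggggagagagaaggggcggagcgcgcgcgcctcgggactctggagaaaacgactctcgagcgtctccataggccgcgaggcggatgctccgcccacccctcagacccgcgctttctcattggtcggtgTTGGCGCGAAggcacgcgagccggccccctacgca

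E2F matches were searched on both strands as 4 heptamers, and 8.52% of 32851 promoter windows of the same length held at least 1 of them. Ezh2 held the first, TTGGCGC, from 5 bases after the start. Suz12 held the second, TTCCCGC, at 218 bases before the start. Rbbp4 held 2 matches that overlap on opposite strands, with TTGGCGC at 15 bases before the start and the third heptamer, TTCGCGC, at 12 bases before it. The remaining heptamer, TTGCCGC, was found in none of the members' windows. The CCAAT motif was found in the windows of Ezh2 (3 matches), Rbbp7 (2 matches), Suz12, Rbbp4 and Jarid2 (1 match each), and 35.4% of all windows held it. None of these letters was found in the windows of Ezh1, Eed, Ring1, Rnf2 and Bmi1. A match is a description of the letters and not evidence of binding.

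The Baf155 CKO library held 865 barcodes and 27314411 UMIs (unique molecular identifiers, which count RNA molecules), and the WT library held 815 barcodes and 24538853 UMIs. After filtering, 841 CKO and 784 WT cells were kept, with median depths of 28268 and 28186.5 UMIs, and 1 barcode was shared. Cells were assigned to classes by gates on marker genes, and the gate gave no class to 87 CKO cells (10.3%) and 102 WT cells (13.0%). The classes held, in CKO and then WT, 70 and 118 progenitor-gated cells, 250 and 152 erythroblast-gated cells, 43 and 49 endothelium-gated cells, and 278 and 247 stromal-gated cells, and these 4 are compared between libraries. Smaller classes were progenitor-endothelium (43 and 16 cells with both marker lists), megakaryocyte (50 and 5), macrophage (15 and 45), endoderm (4 and 30) and erythroid-primed (1 and 20). On average, gated cells had between 55.4% and 100% of their own list's markers at 2 or more UMIs, where 100% is the 1 CKO erythroid-primed cell. The gate itself required a share of at least 0.4, so these values do not check the classes. CKO progenitors also had 24.6% of the megakaryocyte list, and CKO macrophages 36.1% of the progenitor list. The lists for lymphocytes and mast cells summed to at most 2.86 CPM (UMIs of a gene scaled to the same UMI total in each class and library) in either library. Smarcc1 was at 24.0 CPM in all CKO cells and 94.9 CPM in all WT cells. It was lower in CKO in each of the 4 compared classes, with CKO over WT ratios of 0.309 in progenitor, 0.134 in erythroblast, 0.147 in endothelium and 0.304 in stromal cells.

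When both libraries were clustered together, different clusters held most of a class in each library. Cluster c15, with 160 CKO and 0 WT cells, held 67.1% of the CKO progenitor-gated cells, while c2 held 85.6% of the WT ones. Cluster c13 held 92.8% of CKO erythroblasts and c5 held 99.3% of WT erythroblasts. In stroma c12 and c8 held 42.1% and 37.8% of CKO cells, and c9 and c3 held 40.1% and 38.5% of WT cells. Endothelium was mostly c1 in both libraries, with 69.8% of CKO and 95.9% of WT cells. With 1 library per genotype, genotype and library cannot be told apart and no test between them was possible. A call below means a CKO over WT ratio past 1.5-fold, higher or lower, for a gene with at least 20 UMIs over both libraries in that class. Intervals are 95% and cover counting error only.

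Rbbp7, a histone-binding WD40 protein on the X chromosome, was at 468 CPM in CKO and 350.0 CPM in WT stromal cells. Progenitors had 272 CPM in CKO and 257 CPM in WT, endothelium 212 and 208 CPM, and erythroblasts 176 and 149 CPM. The order of these 4 classes was the same in both libraries, and no neighbours in it had overlapping intervals. With globin UMIs left out of the total, erythroblasts stood at 242 CPM in CKO and 219 CPM in WT, above endothelium. WT endoderm cells had 471 CPM of Rbbp7 (30 cells).

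**Figure D1:**
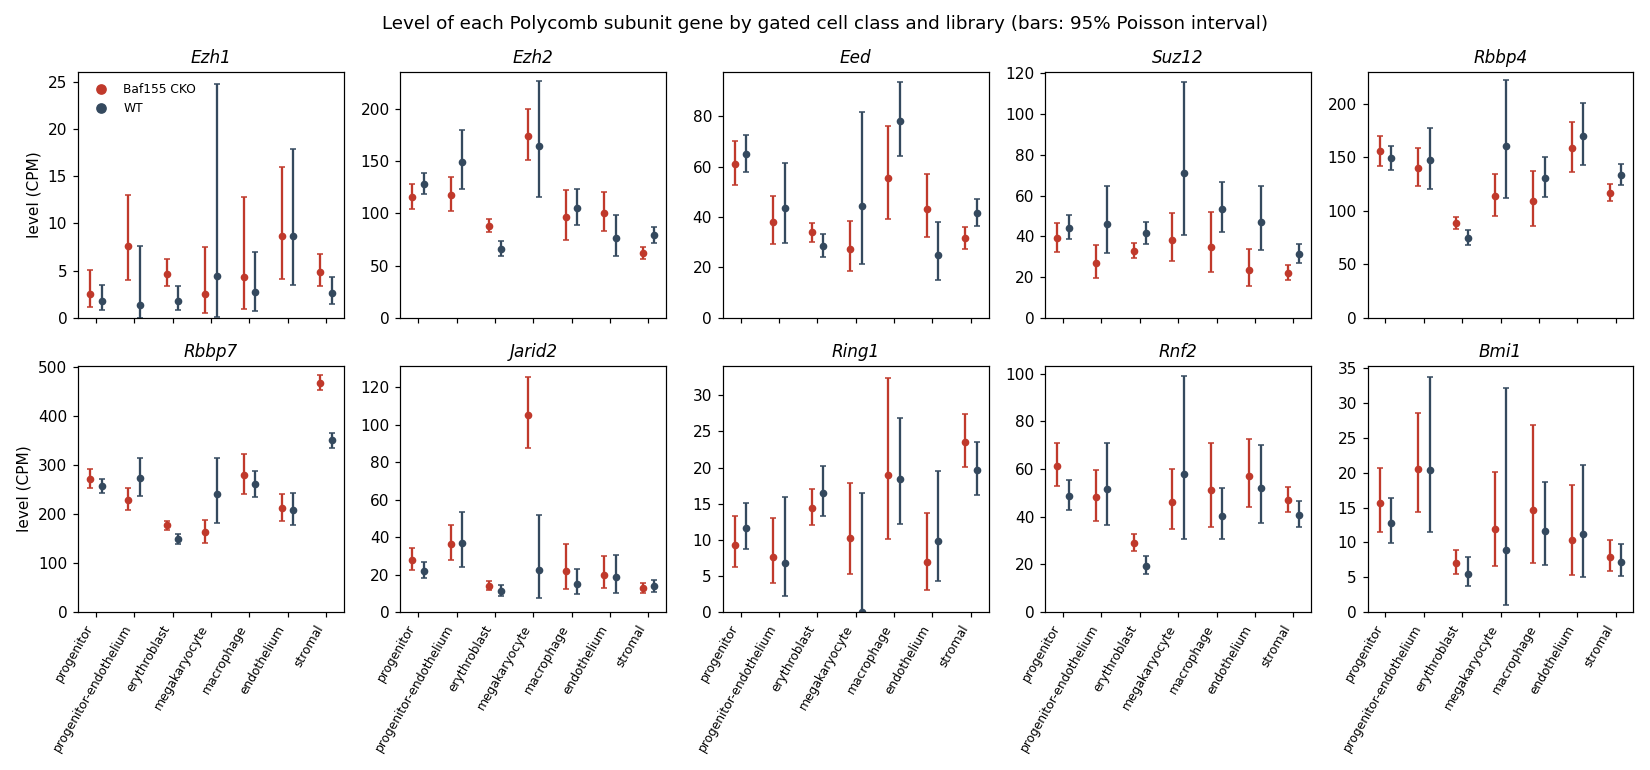
Level in CPM (vertical axes, from 0) of the 10 subunit genes in 7 gated classes, Baf155 CKO in red and WT in dark blue, each point 1 class of 1 library with its 95% Poisson interval. Rbbp7 and Ring1 are highest in stroma among the 4 compared classes in both libraries, and Jarid2 stands at 105 CPM in CKO megakaryocyte-gated cells.

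Ring1, the second PRC1 ubiquitin ligase gene, was also highest in stroma, at 23.5 CPM (20.05 to 27.5) in CKO and 19.6 CPM (16.1 to 23.6) in WT. In progenitors it was at 9.23 CPM in CKO and 11.6 CPM in WT, so that stroma was 2.55 times the progenitor level in CKO and 1.69 times in WT. It was the 1 of 10 members past 1.5-fold higher in stroma over progenitors in both libraries, where 27.6% of 10475 genes were. The WT interval in stroma overlapped that in erythroblasts (16.5 CPM), and with globin UMIs left out WT erythroblasts (24.1 CPM) were above WT stroma.

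Ezh2, Eed, Jarid2 and Bmi1 were past 1.5-fold lower in stroma than in progenitors in both libraries, 4 of 10 members beside 19.7% of all genes. Ezh2, the main H3K27 methyltransferase, was at 61.7 CPM in CKO stroma and 79.0 CPM in WT stroma, against 116 CPM in CKO progenitors and 128 CPM in WT progenitors. Eed, which binds methylated H3K27 and stimulates the enzyme, was at 31.6 CPM in CKO and 41.7 CPM in WT stroma, and at 61.1 and 64.9 CPM in progenitors. Bmi1 was at 7.90 CPM in CKO and 7.18 CPM in WT stroma, and at 15.6 and 12.8 CPM in progenitors. Jarid2 was at 12.7 CPM in CKO and 13.7 CPM in WT stroma, and at 27.7 and 22.0 CPM in progenitors. Per cell, the median Ezh2 level in progenitors was 116 CPM in both libraries.

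Between erythroblasts and progenitors the counts depended on globins, which took 27.01% of CKO and 31.7% of WT erythroblast UMIs. Over all UMIs, Eed, Rbbp4, Rbbp7, Jarid2, Rnf2 and Bmi1 were past 1.5-fold lower in erythroblasts in both libraries, 6 of 9 members with 54.4% of 8980 genes so called, and 0 were higher (5.45% of genes). With globin UMIs left out, Rnf2 and Bmi1 were still called lower (30.7% of genes), and Ring1 was called higher (9.18% of genes). Rnf2, the main H2A ubiquitin ligase of PRC1, was then at 39.9 CPM in CKO and 28.4 CPM in WT erythroblasts, against 61.6 CPM in CKO and 48.7 CPM in WT progenitors. Ring1 was at 19.7 CPM in CKO and 24.1 CPM in WT erythroblasts on that scale, against 9.25 and 11.6 CPM in progenitors. On both scales Rnf2 was lower and Ring1 higher in erythroblasts than in progenitors in both libraries. Between endothelium and progenitors, 0 of 9 members were called higher (19.4% of 8573 genes) and 0 lower (15.7%) in both libraries. Ezh1, with 10 CKO and 7 WT UMIs in endothelium, was too sparse to be among the 9.

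Ezh1, the other PRC2 methyltransferase, had fewer UMIs than Ezh2 in every class. For each 100 Ezh2 UMIs, progenitors had 2.20 Ezh1 UMIs in CKO (0.942 to 4.38) and 1.43 in WT (0.649 to 2.72). Stroma had 7.82 in CKO (5.31 to 11.2) and 3.33 in WT (1.85 to 5.54). Endothelium had 8.62 in CKO (4.03 to 16.4) and 11.3 in WT (4.36 to 24.7), and its interval lay above that of progenitors in WT and overlapped it in CKO. Erythroblasts had 5.28 in CKO (3.80 to 7.15) and 2.76 in WT (1.31 to 5.14). WT endoderm had 15.7 (6.43 to 33.3). These ratios rest on as few as 7 Ezh1 UMIs.

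**Figure D2:**
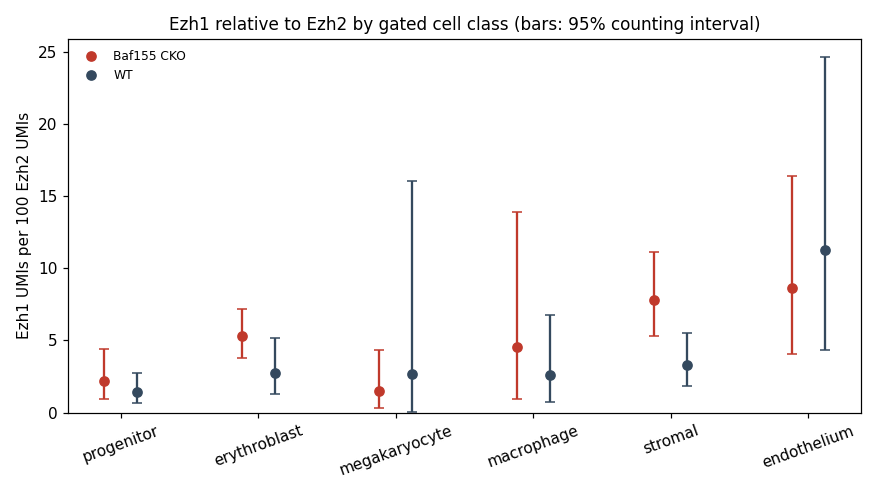
Ezh1 UMIs per 100 Ezh2 UMIs (vertical axis, from 0) in 6 gated classes, Baf155 CKO in red and WT in dark blue, with 95% counting intervals. Endothelium stands at 8.62 in CKO and 11.3 in WT, and progenitors at 2.20 and 1.43.

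Between the libraries, most members were within 1.5-fold in each class. In progenitors 0 of 9 tested members were called in either direction, where 24.3% of 9494 genes were (13.8% higher and 10.51% lower). Their median log2 ratio was 0.07, beside 0.01 for all genes. Ezh2 had 364 UMIs in CKO and 631 in WT, 116 and 128 CPM, a ratio of 0.902 (0.791 to 1.03). Eed had a ratio of 0.941, Rbbp4 of 1.04 and Rbbp7 of 1.06, with intervals that include 1. Rnf2 was at 61.4 CPM in CKO and 48.6 CPM in WT, a ratio of 1.26 whose interval (1.04 to 1.53) excludes 1. In the 30 CKO progenitors with 0 Smarcc1 UMIs, 1 member was called in place of 0, Bmi1 with a log2 ratio of 0.76 (0.06 to 1.43) over all WT progenitors. Under the classes made from clusters, c15 had no class, and the progenitors were the 35 CKO and 163 WT cells of c2. Only 21 of the 70 CKO progenitor-gated cells were in c2, so these are partly different cells. Among them Ring1 was called lower (-0.72), and the log2 ratios of Jarid2 (-0.32), Bmi1 (-0.41) and Rbbp4 (-0.24) were below 0, against 0.33, 0.28 and 0.06 in the gated cells.

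In erythroblasts Ezh1 and Rnf2 were called higher in CKO, 2 of 10 members, where 24.9% of 8864 genes were called higher and 6.86% lower. Ezh1 had 44 UMIs in CKO (4.66 CPM) and 10 in WT (1.83 CPM), a ratio of 2.55 (1.26 to 5.68). Rnf2 was at 29.1 CPM in CKO and 19.4 CPM in WT, a ratio of 1.502 (1.20 to 1.90) that lies at the call threshold. The median log2 ratio of all genes was 0.21 in this class and that of the members 0.27. Relative to that shift, the log2 ratios were 1.14 for Ezh1 and 0.38 for Rnf2, so that only Ezh1 stayed past 1.5-fold. Ezh2 was at 88.3 CPM in CKO and 66.2 CPM in WT, a log2 ratio of 0.42 (0.24 to 0.60) that was 0.20 relative to the shift. Summed S phase and G2/M marker lists were at 2763 and 6507 CPM in CKO erythroblasts, against 1929 and 5537 CPM in WT erythroblasts, and their part in these ratios was not tested. Xist-positive cells, described further on, made up 66.0% of CKO and 45.4% of WT erythroblasts. In them the log2 ratio of Ezh2 was 0.59 (0.33 to 0.86). That of Ezh1 was 0.63 on 20 CKO and 5 WT UMIs, with an interval (-0.83 to 2.40) that includes 0.

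In endothelium Eed was called higher and Suz12 lower in CKO, 1 member each of 8, where 12.1% of 7325 genes were called higher and 17.6% lower, 29.6% in all. Eed was at 43.3 CPM in CKO (50 UMIs) and 24.8 CPM in WT (20 UMIs), a ratio of 1.75 (1.02 to 3.10). Suz12, the PRC2 scaffold subunit, was at 23.4 CPM in CKO (27 UMIs) and 47.0 CPM in WT (38 UMIs), a ratio of 0.497 (0.292 to 0.836). The median depth of these cells was 25029 UMIs in CKO and 13207 UMIs in WT, and its part in these ratios was not tested. The members' median log2 ratio was 0.01, beside -0.06 for all genes.

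In stroma Ezh1 was called higher, 1 of 10 members where 13.8% of 11080 genes were, and 0 were called lower (11.2% of genes). Ezh1 had 33 UMIs in CKO (4.83 CPM) and 15 in WT (2.63 CPM), a ratio of 1.84 whose interval (0.970 to 3.64) includes 1. Ezh2, Eed and Suz12 were lower in CKO by less than 1.5-fold with intervals that exclude 1, at ratios of 0.781 (0.682 to 0.894), 0.758 (0.627 to 0.915) and 0.696 (0.556 to 0.869). Rbbp4, the histone chaperone that PRC2 shares with other complexes, was at 117 CPM in CKO and 133 CPM in WT, a ratio of 0.876 (0.793 to 0.969). Its paralog Rbbp7 was at 468 CPM in CKO and 350.0 CPM in WT, a ratio of 1.34 (1.26 to 1.41). S phase and G2/M lists were at 2548 and 5924 CPM in CKO stroma, against 3256 and 7722 CPM in WT stroma, and their part in these ratios was not tested. Relative to the median of all genes (-0.01 log2) these directions did not change.

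**Figure D3:**
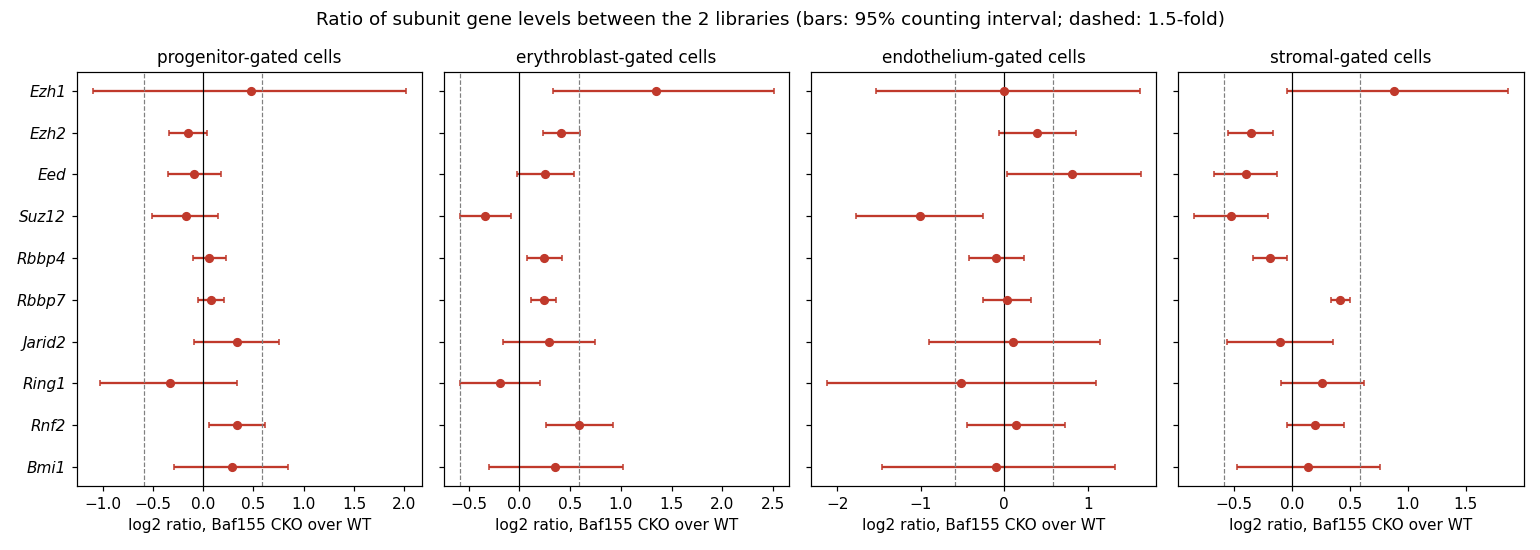
Log2 ratio of CPM, Baf155 CKO over WT (horizontal axes), for the 10 members in 4 gated classes, with 95% counting intervals, and dashed lines at 1.5-fold in either direction. Ezh2 lies at 0.42 in erythroblasts and -0.36 in stroma, and Suz12 lies below 0 in all 4 classes.

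Across the 4 classes, 3 of the 8 members tested in all of them kept 1 side. Suz12 was lower in CKO in each class, with ratios of 0.886, 0.793, 0.497 and 0.696 in progenitors, erythroblasts, endothelium and stroma, where 14.8% of 6378 genes were lower in all 4. Rbbp7 and Rnf2 were higher in CKO in each class, where 17% of genes were. The intervals of Suz12 in progenitors, of Rbbp7 in progenitors and endothelium and of Rnf2 in endothelium and stroma include a ratio of 1. None of these directions flipped when globin UMIs were left out or ratios were centred on the median of all genes, but some did under other settings. The Rbbp7 log2 ratio was -0.05 and -0.04 in endothelium under the stricter and looser gates and -0.01 in progenitors over CKO cells with 0 Smarcc1 UMIs. That of Rnf2 was -0.07 in endothelium over CKO cells with 0 Smarcc1 UMIs and -0.02 in Xist-positive stroma, and that of Suz12 was 0.00 in Xist-positive stroma. In smaller classes Suz12 was at 26.97 CPM in CKO and 46.3 CPM in WT progenitor-endothelium cells, 38.4 and 71.3 CPM in megakaryocyte-gated cells, and 35.01 and 53.4 CPM in macrophage-gated cells. The intervals of the 2 libraries overlapped in each of these smaller classes. The WT megakaryocyte value rests on 16 UMIs in 5 cells, too few for a comparison. Cells without a class had 37.4 CPM of Suz12 in CKO and 39.1 CPM in WT. In endoderm Suz12 was at 47.6 CPM in 4 CKO cells and 46.1 CPM in 30 WT cells. Smarcc1 was not lower in CKO in all of these smaller classes. It was at 72.9 CPM in CKO (54.1 to 96.2) and 88.3 CPM in WT macrophages (73.7 to 105), and at 124 and 38.6 CPM in endoderm. In progenitor-endothelium cells it was at 11.1 CPM in CKO and 162 CPM in WT, and in megakaryocyte-gated cells at 21.4 and 143 CPM.

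Cells with at least 2 Xist UMIs and no Y-linked UMI (Xist-positive) were taken apart from cells with at least 2 Y-linked UMIs and at most 1 Xist UMI (Y-positive), a comparison chosen after seeing the data. Xist-positive cells were 45.8% of CKO and 44.1% of WT cells, and Y-positive cells 31.3% and 30.7%. The shares were less alike within classes. Xist-positive cells were 35.7% of CKO and 54.2% of WT progenitors, 44.2% and 30.6% of endothelium, and 37.1% and 40.5% of stroma. Y-positive cells were 47.1% of CKO and 31.4% of WT progenitors. The part of these shares in the ratios of members and of other Polycomb genes was not tested. In Xist-positive stroma Suz12 was at 25.3 CPM in CKO and 25.3 CPM in WT, a log2 ratio of 0.00. In Y-positive stroma it was at 20.3 CPM in CKO (15.1 to 26.8) and 35.3 CPM in WT (28.0 to 44.0), and Suz12 (-0.80) and Eed (-0.67) were both called lower there. The difference between the 2 kinds of cell was not tested. Rbbp7, the X-linked member, was at 419 CPM in CKO and 360.4 CPM in WT Xist-positive stroma, and at 508 CPM and 342 CPM in Y-positive stroma, so that CKO was higher in both.

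**Figure D4:**
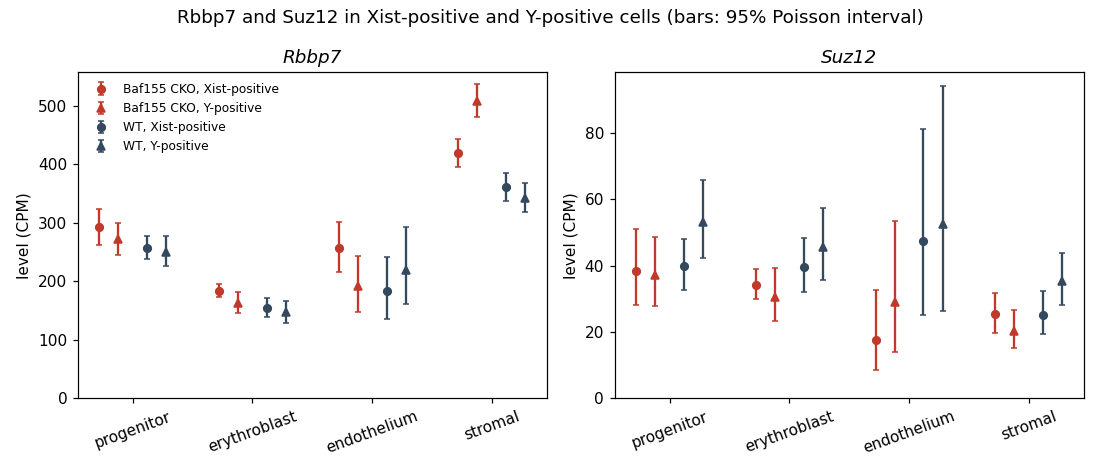
Level in CPM (vertical axes, from 0) of Rbbp7 and Suz12 in Xist-positive cells (circles) and Y-positive cells (triangles) of 4 gated classes, Baf155 CKO in red and WT in dark blue, with 95% Poisson intervals. In stroma Rbbp7 is higher in CKO in both kinds of cell, and Suz12 is at 25.3 CPM in Xist-positive cells of both libraries.

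Within stroma, Rbbp7 was higher in CKO in each finer gate, and these gates did not hold all stromal cells. Cells with smooth muscle markers had 441 CPM in CKO (135 cells) and 344 CPM in WT (124 cells). Cells with mesothelium markers had 429 CPM in CKO (22 cells) and 351 CPM in WT (26 cells), with overlapping intervals. Cells with neither list had 521 CPM in CKO (64 cells) and 353 CPM in WT (59 cells). Per stromal cell, the median Rbbp7 level was 416 CPM in CKO (quartiles 297 and 672) and 318 CPM in WT (quartiles 217 and 436), so the cells of the 2 libraries overlapped.

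Jarid2, which recruits PRC2 to chromatin, had its highest class level in CKO megakaryocyte-gated cells. It was at 105 CPM there (87.3 to 125; 123 UMIs in 50 cells), against 22.3 CPM (7.23 to 52.0; 5 UMIs) in 5 WT megakaryocyte-gated cells. The 2 intervals do not overlap, but the WT value rests on 5 cells, too few for the comparison between libraries. Within the CKO library, megakaryocyte-gated cells over progenitors gave a Jarid2 ratio of 3.80 (2.86 to 5.05). Ezh2 was called higher as well, at 174 CPM in megakaryocyte-gated cells and 116 CPM in progenitors, a ratio of 1.505 (1.26 to 1.79). These were 2 of 9 members, where 18.7% of 8500 genes were called higher. Eed (27.3 CPM, ratio 0.447) and Rbbp7 (163 CPM, ratio 0.6005) were called lower, where 24.2% of genes were.

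The Jarid2 level was spread over the CKO megakaryocyte-gated cells. The median was 78.7 CPM per cell with quartiles of 43.1 and 157 CPM, and the 5 cells with most held 32.5% of its UMIs. In the 33 cells with at least 60% of the megakaryocyte markers it was at 115 CPM, and in the 17 cells with fewer at 82.3 CPM. Rbbp7 was at 123 CPM in those 33 cells and 252 CPM in those 17 cells. Leaving out cells with 1% or more globin UMIs kept 36 cells and a Jarid2 level of 97.9 CPM. Cluster c14, with 52 CKO cells and 1 WT cell, held 88.0% of the CKO megakaryocyte-gated cells, and their median depth was 22194 UMIs. Progenitor-endothelium cells, by contrast, had 36.3 CPM of Jarid2 in CKO and 36.7 CPM in WT.

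The cells of each class and library were divided into an upper and a lower set at the median summed level of the S phase and G2/M lists, which hold no member. In progenitors 0 of 9 members were past 1.5-fold higher in the upper set in CKO (8.25% of genes) or in WT (9.12%), and in erythroblasts 0 of 10 in CKO (9.21%) and 0 of 9 in WT (10.9%). Some members of these classes were higher by less than 1.5-fold with intervals that exclude 1. They were Eed (1.35, 1.07 to 1.69) and Suz12 (1.40, 1.06 to 1.85) in WT progenitors. In CKO erythroblasts they were Ezh2 (1.37, 1.19 to 1.59) and Eed (1.44, 1.13 to 1.83). In endothelium 0 of 7 were called in CKO (13% of genes), and Ezh2, Eed and Rbbp7, 3 of 6, in WT (14.6%). In stroma Ezh2, Eed and Bmi1, 3 of 10, were called in CKO (14.9% of genes) and Jarid2, 1 of 9, in WT (7.63%). The intervals of Eed in WT endothelium and of Bmi1 in CKO stroma included a ratio of 1. Past 1.5-fold lower in the upper set were, in CKO, Jarid2 and Ring1 in progenitors (2 of 9 members and 8.04% of genes), Ezh1 in erythroblasts (1 of 10, 5.02%), Jarid2 in endothelium (1 of 7, 10.7%), and Jarid2 and Ezh1 in stroma (2 of 10, 12% of genes). In WT 0 of 9, 9, 6 and 9 tested members were called lower in progenitors, erythroblasts, endothelium and stroma (3.76%, 3.56%, 10.2% and 6.03% of genes). Some WT members were lower in the upper set but had under 20 UMIs and could not be called. Ezh1 had 0 UMIs in the upper and 9 in the lower set of WT progenitors. Its ratio was 0.476 in WT stroma, and that of Jarid2 was 0.470 in WT endothelium. Jarid2 ran in opposite directions in the stroma of the 2 libraries, at 10.3 CPM in the upper and 16.6 CPM in the lower set in CKO, a ratio of 0.618 (0.397 to 0.964), against 19.8 and 7.18 CPM in WT, a ratio of 2.76 (1.64 to 4.85). In CKO progenitors its ratio was 0.613 (0.390 to 0.956), and that of Ezh1 in CKO erythroblasts was 0.448 (0.229 to 0.852), while the remaining intervals of members called lower include 1. Ezh2 was at 76.4 CPM in the upper and 38.5 CPM in the lower set of CKO stroma, a ratio of 1.99 (1.58 to 2.51), against 78.0 and 80.1 CPM in the upper and lower sets of WT stroma. The lower set of CKO stroma had 4427 CPM of the lists summed and that of WT stroma 8388 CPM, so the sets do not match between libraries. Rbbp7 ran against Ezh2 in CKO stroma, with 417 CPM in the upper and 547 CPM in the lower set. Median depths were 28983 UMIs in the upper and 18946 UMIs in the lower set of CKO stroma, and their part was not tested. Of the cells, 39 CKO and 73 WT stromal cells lay within 10% of the dividing value.

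**Figure D5:**
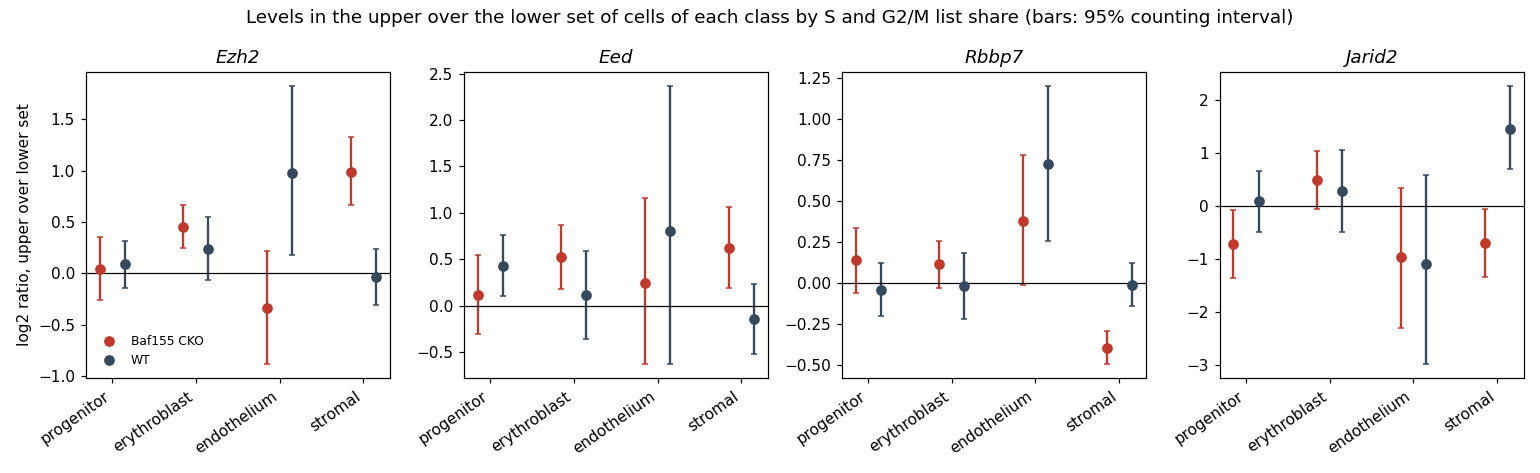
Log2 ratio of CPM in the upper over the lower set of cells of each class by summed S phase and G2/M lists (vertical axes), for Ezh2, Eed, Rbbp7 and Jarid2, Baf155 CKO in red and WT in dark blue, with 95% counting intervals. In stroma Ezh2 and Eed in CKO and Jarid2 in WT have intervals above 0. Rbbp7 and Jarid2 in CKO stroma have intervals below 0, as does Jarid2 in CKO progenitors. Also above 0 are the intervals of Eed in WT progenitors, of Ezh2 and Eed in CKO erythroblasts, and of Ezh2 and Rbbp7 in WT endothelium.

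Over the 8 sums of class and library, which share library and depth, the level of Rbbp4 followed the cycle lists most closely (Pearson r = 0.89 on the log2 scale). Rnf2 (0.78), Jarid2 (0.76), Bmi1 (0.76) and Ezh2 (0.72) came next, and Ring1 ran against them (-0.63). Among the members, Jarid2 and Bmi1 were the pair with the highest correlation (0.97), followed by Rbbp4 and Rnf2 (0.94). Ezh2 and Eed had 0.87 and Jarid2 and Ring1 -0.78. These are descriptions of 8 points, and with so few points high values arise easily among many genes. Of 7076 genes compared over the same points, the pattern of Ezh2 was most like that of Mrpl47, Prcc and Grpel2 (0.99 to 0.97). Those most like Eed were Lrwd1, Prpf4 and Naa50, and those most like Suz12 were Rngtt, Rars2 and Ndufaf1. Rbbp4 was closest to Ywhah, Cotl1 and B2m, Rbbp7 to Fntb, Ndufv3 and Pddc1, and Jarid2 to Hnrnpf, Lyz2 and Atp5f1. Rnf2 was closest to Ss18, Crlf2 and Mob1a, Bmi1 to Psme1, Syngr2 and Rps6ka3, and Ezh1 to Ap2a2, Cenpt and Gnpda1.

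Other genes of the Polycomb system were counted with the same call. Of the 25 other PRC1 genes listed, 3 were called higher and 5 lower in CKO of 21 tested in progenitors, 1 and 4 of 20 in erythroblasts, 0 and 4 of 14 in endothelium, and 3 and 3 of 24 in stroma. Over all genes the shares called higher and lower were 13.8% and 10.51% in progenitors, 24.9% and 6.86% in erythroblasts, 12.1% and 17.6% in endothelium, and 13.8% and 11.2% in stroma. Phc2, a polyhomeotic subunit that clusters PRC1, was lower in CKO in all 4 classes. It was at 18.8 CPM in CKO and 42.1 CPM in WT progenitors, a ratio of 0.446 (0.328 to 0.598), and its ratios were 0.399 in erythroblasts, 0.508 in endothelium and 0.462 (0.391 to 0.546) in stroma. In progenitors Auts2, a PRC1 partner that goes with gene activation, was at 10.8 CPM in CKO and 27.9 CPM in WT (ratio 0.388), and Rybp, a subunit of variant PRC1, at 14.3 and 27.3 CPM (0.525). Bcor, the scaffold of the Pcgf1 variant, was at 22.0 CPM in CKO and 10.2 CPM in WT progenitors (2.16), and E2f6 had a ratio of 1.61. In stroma L3mbtl2 (0.496) and Pcgf6 (0.541), both of the Pcgf6 variant, were lower and Scmh1 (1.57) was higher. In erythroblasts Phc1 was higher (1.80) and Pcgf5 was at 17.3 CPM in CKO and 11.5 CPM in WT, just inside the threshold. Yaf2 and Mtf2 in endothelium had ratios of 1.10 and 0.959.

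Of the 8 PRC2 accessory genes listed, 6 were in the files, and 0 were called higher and 1 lower of 4 tested in progenitors, 1 and 0 of 4 in erythroblasts, 0 and 2 of 3 in endothelium, and 1 and 1 of 5 in stroma. The 8 genes of the complex that removes H2A ubiquitin and its partners had 3 higher and 0 lower of 7 tested in progenitors, 3 and 0 of 7 in erythroblasts, 2 and 1 of 6 in endothelium, and 2 and 1 of 8 in stroma. The shares of all genes called higher were 13.8%, 24.9%, 12.1% and 13.8% in progenitors, erythroblasts, endothelium and stroma, and those called lower were 10.51%, 6.86%, 17.6% and 11.2%. Ogt, the O-GlcNAc transferase in that list, was at 48.0 CPM in CKO and 28.9 CPM in WT progenitors (1.66) and at 47.1 and 31.1 CPM in erythroblasts (1.52). Bap1, the deubiquitinase itself, had a ratio of 1.60 in erythroblasts, Foxk1 of 1.77 and Asxl2 of 0.626 in stroma. Of the 2 H3K27 demethylase genes, 0 were called in progenitors and 1 higher in each of the other 3 classes, and Kdm6a had a ratio of 1.52 in erythroblasts. In erythroblasts the log2 ratios of Ogt (0.60), Kdm6a (0.60) and Bap1 (0.68) stand beside a shift of 0.21 log2 in all genes. Relative to that shift, none of these genes stayed past 1.5-fold.

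A list of 20 genes known as Polycomb targets in stem cells was low over whole libraries. Of these, 9 were at 0 UMIs in CKO and 3 in WT, and 19 were under 5 CPM in each library. By class, 6 of the 20 reached 5 CPM with at least 5 UMIs in a gated class. Gata6, a transcription factor of mesoderm and endoderm, was at 82.9 CPM in CKO stroma and 57.1 CPM in WT stroma. Cdkn2b, a cell cycle inhibitor, had 55 UMIs (8.04 CPM) in CKO stroma and 6 UMIs (1.05 CPM) in WT stroma. Its neighbour Cdkn2a had 56 UMIs in WT endoderm (69.7 CPM). The endoderm regulators Foxa2 and Gata4 were at 44.8 and 26.1 CPM in WT endoderm, and Cdx2 at 76.2 CPM in the 4 CKO endoderm cells (8 UMIs) and 11.2 CPM in WT endoderm. With 0 to 3 listed genes tested in a class, no share was read from the list.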

How the data were processed

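Deposited matrices held whole UMI counts per gene and barcode; per the submitters' processing notes, the tools were Cell Ranger and Seurat with GRCm38, without versions. Whether counting used strand is not stated. Genes on the opposite strand overlap Ezh2, Eed, Suz12, Rbbp4, Rbbp7, Jarid2 and Rnf2, and of 50-base windows 16.7% in Bmi1 and 6.97% in Rbbp7 transcripts also occur in other genes (mostly Gm5946 and Gm6382), so their counts are less certain.

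Barcodes under 500 genes or over 10% mitochondrial UMIs were dropped (18 CKO and 28 WT by the mitochondrial limit), and 6 CKO and 3 WT doublets called by Scrublet at a 1% rate were removed. A cell joined the class with the largest share of its markers at 2 or more UMIs, if that share was at least 0.4 and led by 0.1. Erythroid cells with at least 3% globin UMIs were erythroblasts. These thresholds were set after seeing the marker shares, and a gate of 0.5 and 0.2 kept 53 CKO and 85 WT progenitors. UMIs were summed per class and library and expressed as CPM, with exact Poisson intervals, and ratios with conditional binomial intervals, at 95%. A class was compared where each library gave it 20 cells or more. Patterns like a member were sought by correlation of log2(CPM + 1) among genes of at least 10 CPM. Those for Ring1 are not reported here. The other Polycomb genes named are, per class, up to 6 with the largest ratio among those with at least 100 UMIs. Ezh1 in endothelium and Gata6, Cdkn2a, Cdkn2b, Foxa2, Gata4 and Cdx2 among the targets were named after their values were seen. The members and lists were chosen with earlier results of these data known. Alternatives were other gates, cell filters, denominators, thresholds and Leiden clusters. The interval calculation was tested on simulated data. Clustering and doublet calls used scanpy 1.11.5, intervals scipy 1.17.1 and tables pandas 2.3.3, under Python 3.11.15 with numpy 2.4.6; figures used matplotlib 3.10.9. Promoter sequences are from RefSeq, and positions from GENCODE release 21 for the mouse.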

Additional observations from a re-analysis of the deposited data

Results flagged for a closer look

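The CKO over WT log2 ratio of 3 PRC2 genes had opposite signs in 2 classes, with counting intervals on either side of 0, and the difference between classes was not tested, since each genotype is 1 library. The share of all genes with such opposite signs was not computed, so the count of 3 cannot be read as particular to these genes. Ezh2 was at 0.42 in erythroblasts and -0.36 in stroma. In erythroblasts with 30% or more globin UMIs it was at 70.1 CPM in CKO and 68.4 CPM in WT, with overlapping intervals. In those under 30% it was at 97.7 CPM in CKO and 62.5 CPM in WT. Eed was at 0.81 in endothelium and -0.40 in stroma, and its endothelium interval included 0 under the stricter gate (-0.02 to 1.62) and the looser gate (-0.08 to 1.35). Rbbp4 was at 0.24 in erythroblasts and -0.19 in stroma, and its erythroblast value was 0.03 (-0.14 to 0.21) when centred on the median of all genes and 0.15 (-0.02 to 0.32) without globin UMIs. In Xist-positive stroma the intervals of all 3 genes included 0, with values of -0.23 for Ezh2, -0.31 for Eed and -0.11 for Rbbp4.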

How the results depend on the processing

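Of 380 recomputed log2 ratios of single members, 365 moved by less than their counting interval, 15 moved by more, and 0 called values changed sign. Uncalled values that moved with a change of sign include Eed in Y-positive erythroblasts (-0.22, against 0.26) and Jarid2 in endothelium under Leiden classes (-0.93, against 0.10). The Ezh2 log2 ratio in erythroblasts was 0.20 when centred on the median of all genes, against 0.42. The number of members past 1.5-fold in erythroblasts was 1 in place of 2 under a fold of 2, no filter on cells, the stricter gate, Leiden classes, CPM without globin UMIs, centring, or CKO cells with 0 Smarcc1 UMIs, and 0 in Y-positive cells, where Ezh1 had a log2 ratio of 2.45 (0.33 to 5.63) but fell under the minimum of 20 UMIs. In progenitors it was 1 in place of 0 under Leiden classes, in CKO cells with 0 Smarcc1 UMIs, and in Xist-positive and in Y-positive cells (Ring1, Bmi1, Ring1 and Jarid2 in that order). In stroma it was 0 in place of 1 under a fold of 2 and in Xist-positive cells, where Ezh1 was at 0.72 with under 20 UMIs, and 2 in Y-positive cells. Over CKO stroma with 0 Smarcc1 UMIs, Ezh1 (0.56) was not called and Suz12 (-0.68) was. In endothelium it was 1 in place of 2 under a fold of 2, and 3 under the stricter gate and Leiden classes, with Jarid2 called lower (-0.75 and -0.93). The cause of the other moves was not tested. Suz12 in stroma had a log2 ratio of 0.00 in Xist-positive cells, against -0.52. Among genes with at least 100 UMIs, the share of all genes past 1.5-fold was 14.9% in progenitors and 17.5% in endothelium, against 24.3% and 29.6%. Xist-positive and Y-positive cells were chosen after seeing the data and gave no ratio in endothelium, where each library had under 20 of each kind. No paired analysis was possible because each genotype is 1 library, and for the same reason no replicate could be left out. Depth limits Ezh1, Bmi1 and Ring1 most, with as few as 7 UMIs in a compared class of 1 library and 0 to 3 in some smaller classes.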
